A study of Rattus norvegicus with 6 samples.

Results

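A set of 10 genes of the neuronal response to axon injury and of axon regrowth was followed in cultured rat retinal ganglion cells (RGCs), the cells whose axons form the optic nerve. The genes were taken by symbol from the deposited expression table, which lists 17366 genes, 1 transcript each: Map3k12, Jun, Atf3, Gap43, Sprr1a, Gadd45a, Ecel1, Gal, Npy and Vgf. All 10 genes were found. Per the labels, the RGCs came from Sprague Dawley rats labelled age P5 and were cultured for 10 days. The vehicle group received 0.1% BSA with 4 mM HCl, and the Chrdl1 group received 1 µg/ml of Chrdl1 (chordin-like 1), which is secreted and binds bone morphogenetic proteins. Treatment lasted 12 h, and each group has 3 libraries of polyadenylated RNA. The title of each vehicle library ends in a code that 1 Chrdl1 library also carries, and these 3 pairs are named A, B and C by code order. Neither the meaning of the code nor whether a group spans several animals or cultures is stated in the labels, and p-values hence reflect only how these libraries vary.

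When an axon is cut, the dual leucine zipper kinase DLK, encoded by Map3k12, activates the Jun N-terminal kinases (JNKs), which phosphorylate the transcription factor c-Jun. c-Jun and its partner ATF3 are raised in many injured neurons, RGCs among them, together with growth cone proteins, stress genes, a membrane peptidase and neuropeptides. In RGCs the DLK pathway is known for taking part both in the regenerative response and in cell death after optic nerve injury. Purifying RGCs from the retina severs their axons, and the cultured cells grow new ones.

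Expression was given as FPKM, fragments scaled to transcript length and library size, so that levels can be compared between genes per length of transcript. The read totals recovered from the values ranged from 14546600 (the vehicle library of pair B) to 26551800 (the vehicle library of pair C). The extraction text of the labels names visual cortex, whereas all other fields name RGCs. Of the 11 RGC markers chosen, 10 were in the table and their summed level ran from 2207 to 2631 FPKM over the 6 libraries. The 8 astrocyte and Muller glia markers summed to 53.8 to 95.7 FPKM, of which Glul, glutamine synthetase, made up 51.5 to 82.5 FPKM. Of the others, Slc1a3 reached 5.95, Gja1 4.82 and Gfap 1.24 FPKM at most, and Aqp4 no more than 0.017 FPKM.

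All of the genes but Npy were well above the lowest levels measured. Vgf and Gap43 ranked 9 and 15 of all 17366 genes by mean FPKM over the 6 libraries, at 696 and 648 FPKM. Ecel1 and Jun followed at 89.9 and 84.5 FPKM, then Gadd45a, Map3k12 and Sprr1a at 45.01, 43.9 and 39.6 FPKM. Atf3 averaged 16.1 FPKM and Gal 7.31 FPKM, a mean that still exceeded that of 59.85% of genes. The ranges over libraries overlapped between Vgf and Gap43, between Ecel1 and Jun, between Gadd45a and Map3k12 and between Map3k12 and Sprr1a. They did not overlap between Gap43 and Ecel1, Jun and Gadd45a, Sprr1a and Atf3, or Atf3 and Gal. The 9 genes other than Npy had at least 5.56 FPKM in every library and therefore passed the filter for testing, which asked for 1 FPKM or more in 3 or more libraries.

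**Figure D1:**
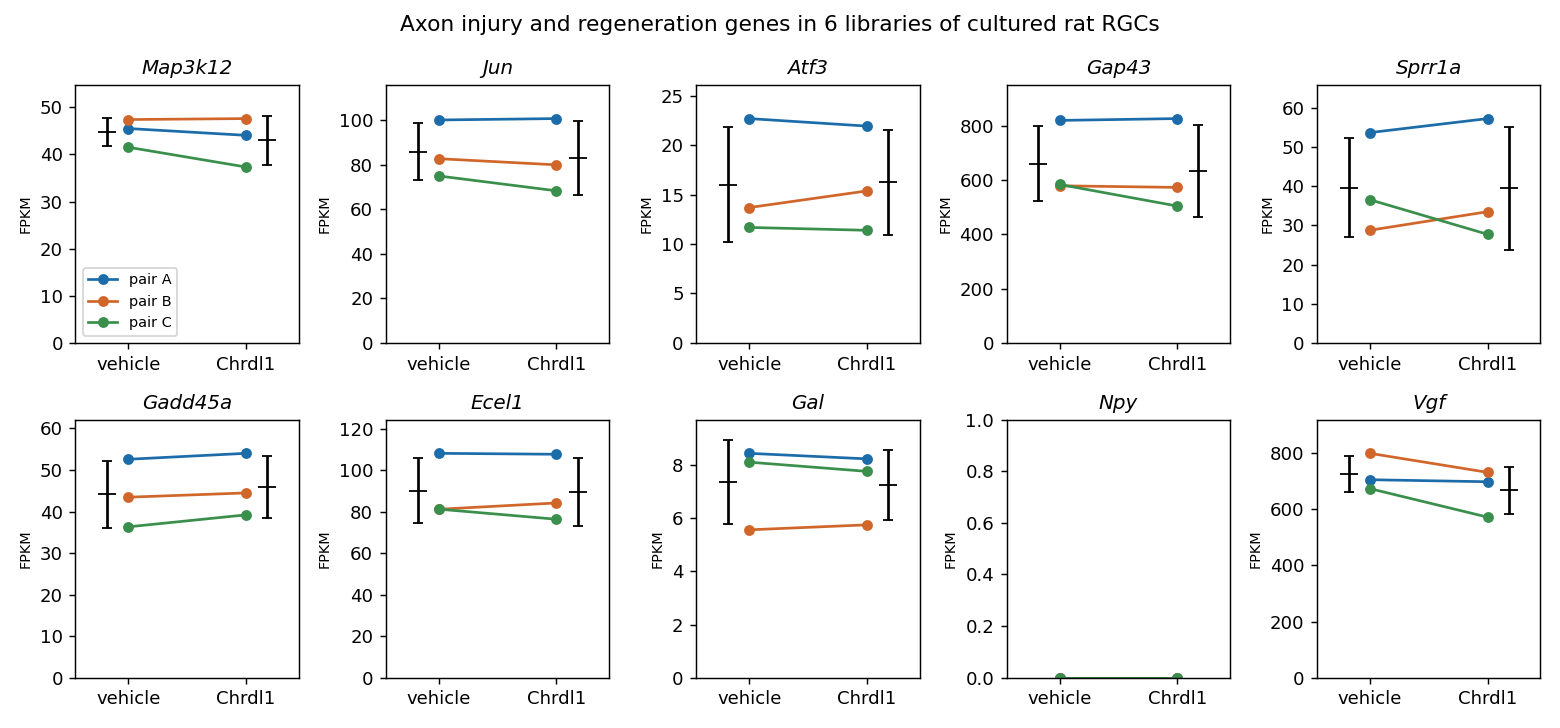
FPKM (vertical axes, from 0) of the 10 genes in vehicle and Chrdl1 libraries. A line connects both members of a pair and the black bars give mean ± SD, n = 3 (none for Npy, listed at 0 in each library); for Jun, Atf3, Gap43, Sprr1a, Gadd45a, Ecel1 and Gal both libraries of pair A lie above the other 4, and the lines of pairs B and C cross for Gap43, Sprr1a and Ecel1.

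None of these genes passed the test of Chrdl1 against vehicle. Limma on log2(FPKM + 1) called 0 of the 9 tested genes at a Benjamini-Hochberg adjusted p under 0.05, as it called 0 of all 10390 tested genes (0%). Without adjustment, 18 genes in all and 0 of the 9 had p under 0.05. This fit has no term for the title code, so differences between codes add to its residual spread. Its SEs for the 9 genes ran from 0.11 to 0.31, against 0.062 to 0.097 in the fit with the code. With the title code as a replicate block there were again 0 calls in 10390 (0%), with 535 genes, 0 of the 9 among them, below 0.05 before adjustment. Limma voom on the recovered reads also called 0 genes (2 below 0.05 before adjustment, none of them among the 9). When blocked, voom again called 0, with 498 genes, Vgf alone of the 9 among them, below 0.05 before adjustment. The median log2 fold change, Chrdl1 minus vehicle, was -0.027 over the 9 genes and -0.028 over all tested genes.

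The codes differed more. All 9 genes were called by limma's moderated F test of the title code, with treatment as a covariate, as were 4930 of 10390 tested genes (47.4%). The calls of Map3k12 and Vgf were lost under 6 and 5 of 10 alternatives and that of Gal under 1. In 7 of the 9 genes (Jun, Atf3, Gap43, Sprr1a, Gadd45a, Ecel1 and Gal) both libraries of pair A were above the other 4 libraries, a pattern that 13.6% of all tested genes had. Map3k12 and Vgf were instead highest in both libraries of pair B, as were 17.8% of all tested genes. Pair B was called lower than pair A in 7 of the 9 (Jun, Atf3, Gap43, Sprr1a, Gadd45a, Ecel1 and Gal; 15% of all tested genes), and pair C lower than pair A in the same genes except Gal (6 of 9; 9.94%). Pair C was called lower than pair B in 4 (Map3k12, Atf3, Gadd45a and Vgf; 11.7%) and higher in Gal alone (20.2%). None of the 9 was highest in pair C, where 23.4% of all tested genes were highest. The 2 libraries of a code may share a culture, so this test sets the codes against the spread within a code and not against the spread between independent cultures.

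**Figure D2:**
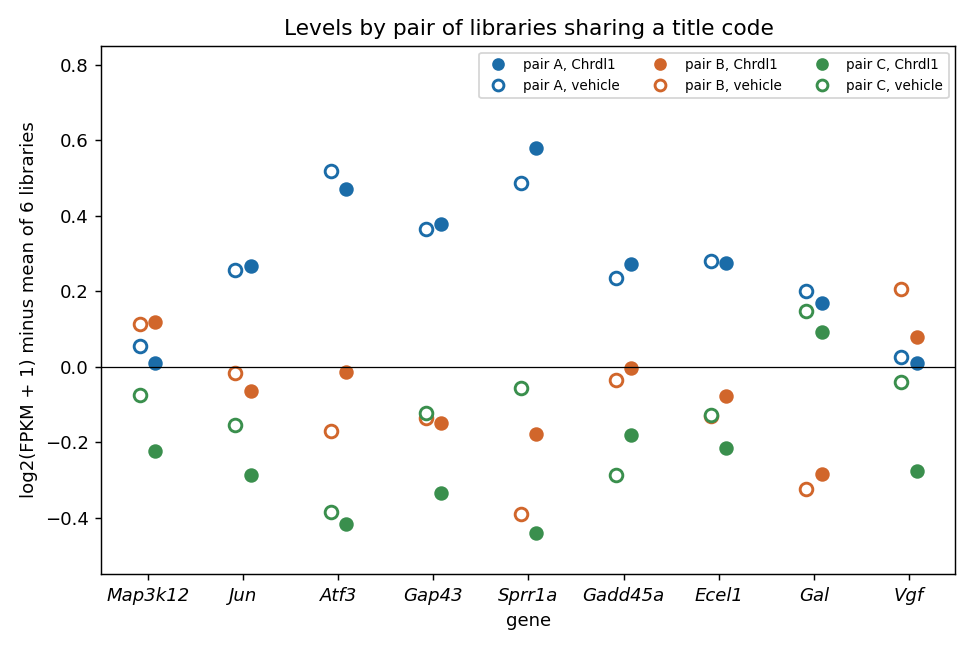
Log2(FPKM + 1) of the 9 tested genes minus the mean of the 6 libraries (vertical axis), by gene (horizontal axis). Open points are vehicle and filled points Chrdl1 libraries, and colours are the pairs; pair A is highest for 7 genes and pair B for Map3k12 and Vgf.

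Map3k12, encoding the kinase DLK, lies on chromosome 7 from 144102680 to 144120306 on the minus strand of rn6. It was at 45.5, 47.4 and 41.5 FPKM in the A, B and C vehicle libraries and at 44.1, 47.6 and 37.3 FPKM in their Chrdl1 partners. The groups overlapped, and the lowest values were those of pair C. The log2 fold change, Chrdl1 minus vehicle, was -0.063 ± 0.11 (SE), with a 95% interval from -0.33 to 0.21 that narrowed to -0.20 to 0.078 under the block. Between codes its mean ran over 0.26 on the log2 scale (limma F test, adjusted p = 0.0377). That call was lost without the filter on low values (adjusted p = 0.0612) and on leaving out any 1 library except the vehicle library of pair C (0.0619 to 0.169).

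Jun, encoding c-Jun, lies on chromosome 5 from 114011186 to 114014277, also on the minus strand. The A, B and C vehicle libraries were at 100.1, 82.7 and 75.0 FPKM and the Chrdl1 libraries at 100.7, 80.0 and 68.3 FPKM. In both groups the order of the pairs was A, B, C, and the groups overlapped. Its log2 fold change was -0.057 ± 0.17 (SE), with an interval from -0.46 to 0.34, or -0.19 to 0.078 under the block. Pair B was lower than pair A by a log2 difference of -0.30 ± 0.076 (limma adjusted p = 0.0110) and pair C by -0.48 ± 0.076 (adjusted p = 0.000592).

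Atf3, the stress-inducible factor that can pair with c-Jun, lies on chromosome 13 from 109817893 to 109849632 on the minus strand. It was at 22.7, 13.7 and 11.7 FPKM in the A, B and C vehicle libraries and at 21.9, 15.4 and 11.4 FPKM in their Chrdl1 partners. These rest on 375 to 1046 reads per library. Pair A was 1.54-fold above pair B and 1.93-fold above pair C by mean FPKM, while within pair A the Chrdl1 library differed from vehicle by -3.34%. The treatment estimate was 0.025 ± 0.30 (SE, log2), with an interval from -0.68 to 0.73, and from -0.15 to 0.20 under the block. Differences from pair A were -0.59 ± 0.097 for pair B and -0.89 ± 0.097 for pair C, with limma adjusted p-values of 0.000828 and 3.6e-05. The FPKM ratio of Atf3 to Jun was 0.227 (vehicle) and 0.218 (Chrdl1) in pair A and 0.156 to 0.192 in the other libraries, so Atf3 stood higher in pair A by more than Jun did.

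Gap43, encoding growth-associated protein 43 of growth cones, lies on chromosome 11 from 58624198 to 58717916 on the plus strand. Its A, B and C vehicle libraries were at 820, 579 and 584 FPKM, and its Chrdl1 libraries at 827, 573 and 504 FPKM. Pair A stood apart in both groups, and pairs B and C did not differ past the threshold (-0.086 ± 0.093, adjusted p = 0.519). Relative to pair A, pair B was at -0.51 ± 0.093 and pair C at -0.60 ± 0.093 on the log2 scale (limma adjusted p = 0.00148 and 0.000511). The log2 fold change with Chrdl1 was -0.071 ± 0.24 (SE), with an interval from -0.64 to 0.50, or -0.24 to 0.093 under the block. Gap43 exceeded Vgf in both libraries of pair A, by ratios of 1.16 and 1.18, and was below it in the other 4, at ratios of 0.725 to 0.882.

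Sprr1a, a small proline-rich protein of cornified epithelia that is also induced in injured sensory neurons and promotes neurite outgrowth, lies on chromosome 2 from 192669143 to 192671059 on the minus strand. The A, B and C vehicle libraries were at 53.7, 28.8 and 36.5 FPKM and the Chrdl1 libraries at 57.3, 33.5 and 27.7 FPKM. Both libraries of pair A were high, and the libraries of pairs B and C overlapped. Sprr1a had the largest SD of log2(FPKM + 1) over the libraries among the 9 genes, 0.44. Pair B was at -0.82 ± 0.12 and pair C at -0.78 ± 0.12 relative to pair A (limma adjusted p = 0.000327 and 0.000451). With Chrdl1 it differed by 0.091, 0.21 and -0.39 on the log2 scale in pairs A, B and C, so its mean of -0.027 ± 0.31 (SE) joins opposite signs. Its interval was -0.76 to 0.71, or -0.24 to 0.18 under the block.

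The promoters of Sprr1a and Vgf are shown because these genes had different orders of the codes and hold the AP-1 or CRE letters, which are bound by dimers of the Jun, Fos and ATF/CREB families. Each sequence runs 5′ to 3′ on the strand of the gene, from 250 bases before to 50 bases after the RefSeq start (GRCr8), and capitals mark the motif matches.
Sprr1a, chr2:180752576-180752875, minus strand: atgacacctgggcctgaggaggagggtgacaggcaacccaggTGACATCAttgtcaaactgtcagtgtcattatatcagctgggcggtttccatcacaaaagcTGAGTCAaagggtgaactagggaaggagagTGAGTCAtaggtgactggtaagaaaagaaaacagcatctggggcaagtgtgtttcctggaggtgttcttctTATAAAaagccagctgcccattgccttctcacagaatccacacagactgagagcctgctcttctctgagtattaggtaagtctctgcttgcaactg
Vgf, chr12:25276971-25277270, minus strand: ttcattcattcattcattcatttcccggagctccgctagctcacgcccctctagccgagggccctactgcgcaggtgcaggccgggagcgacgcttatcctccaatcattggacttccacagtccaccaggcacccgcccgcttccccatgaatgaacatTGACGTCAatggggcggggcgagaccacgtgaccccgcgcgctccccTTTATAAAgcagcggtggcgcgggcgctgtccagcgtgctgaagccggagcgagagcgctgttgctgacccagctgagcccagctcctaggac
Of the 10 genes, 7 had a promoter in the table, and Jun, Atf3 and Gap43 had none. Both strands were searched. The AP-1 letters TGANTCA were found in Sprr1a alone of the 7, with 2 matches whose first bases lie 147 and 117 bases before the start, and 7.33% of all 33469 promoters of this length hold a match. Sprr1a also held TGACATCA, a CRE variant, 208 bases before the start, as do 4.34% of all promoters. The CRE letters TGACGTCA were found in Vgf alone of the 7, 90 bases before the start, and in 1.83% of all promoters. TATAAA, the TATA box, was found 46, 41 and 41 bases before the start in Sprr1a, Gal and Vgf and in 14.2% of all promoters; in Vgf a match on the other strand overlaps it. Map3k12, Gadd45a, Ecel1 and Npy held none of these letters in this window. A match is a description of the sequence and not a measured binding site. Gadd45a, Ecel1 and Gal, highest in pair A like Sprr1a, held no AP-1 or CRE letters in this window. The windows rest on the RefSeq start, and whether transcription begins there in these cells was not tested for any gene, Ecel1 included. Neither did Map3k12, highest in pair B like Vgf. A link between these letters and the order of the codes was not tested.

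Gadd45a, a growth arrest and DNA damage gene that is raised in axotomized neurons, lies on chromosome 4 from 97782512 to 97784814 on the minus strand. It was at 52.6, 43.5 and 36.3 FPKM in the A, B and C vehicle libraries and at 54.0, 44.5 and 39.2 FPKM in their Chrdl1 partners. The pairs kept the order A, B, C in both groups. Gadd45a was the only one of the 9 genes to be higher with Chrdl1 in all 3 pairs, by 0.038, 0.033 and 0.11 on the log2 scale, a pattern shared by 7.55% of all tested genes. The mean was 0.059 ± 0.17 (SE), with an interval from -0.34 to 0.46, and under the block its interval was -0.077 to 0.20 (limma adjusted p = 0.905). Relative to pair A, pair B was at -0.27 ± 0.077 and pair C at -0.49 ± 0.077 (limma adjusted p = 0.0192 and 0.000599).

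Ecel1, a neuronal membrane metallopeptidase also named DINE for its induction by nerve damage, lies on chromosome 9 from 94238568 to 94250809 on the minus strand. Its vehicle libraries were at 108.2, 81.2 and 81.3 FPKM and its Chrdl1 libraries at 107.8, 84.3 and 76.4 FPKM, in the order A, B, C. Pair A stood above the other 4 libraries, which overlapped between pairs B and C. The log2 difference from pair A was -0.38 ± 0.076 for pair B and -0.45 ± 0.076 for pair C (limma adjusted p = 0.00293 and 0.000943). The treatment estimate was -0.014 ± 0.17 (SE), with an interval from -0.41 to 0.39, or -0.15 to 0.12 under the block. The table gives this transcript a length of 7735 bases and Ecel1 is the one member of 4000 bases or more, a class whose median difference in pair C is given with the treatment estimates.

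The neuropeptide genes did not follow 1 pattern. Gal, encoding the precursor of galanin, lies on chromosome 1 from 218653059 to 218657922 on the minus strand and was at 8.44, 5.56 and 8.11 FPKM in the A, B and C vehicle libraries. The Chrdl1 libraries were at 8.23, 5.75 and 7.76 FPKM. Pair B was low in both groups and pairs A and C lay close together, although both libraries of pair A were the higher. Gal rests on 56 to 149 reads per library, the fewest of the 9 genes. Pair B differed from pair A by -0.49 ± 0.11 (limma adjusted p = 0.00651) and pair C from pair B by 0.42 ± 0.11 (adjusted p = 0.0120), while pair C differed from pair A by -0.064 ± 0.11 (adjusted p = 0.698). The F test of the code for Gal was not past the threshold with voom on the recovered reads (adjusted p = 0.125, against 0.00657 on FPKM). Its log2 fold change with Chrdl1 was -0.016 ± 0.20 (SE), with an interval from -0.48 to 0.45, or -0.21 to 0.18 under the block.

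Vgf encodes a secreted granule protein that is induced by neurotrophins and cut into several peptides, and its gene lies on chromosome 12 from 22677607 to 22680630 on the minus strand. The A, B and C vehicle libraries were at 705, 799 and 673 FPKM and the Chrdl1 libraries at 698, 731 and 572 FPKM. It was the only one of the 9 genes to be lower with Chrdl1 in all 3 pairs, at -0.015, -0.13 and -0.24 on the log2 scale, as 19.5% of all tested genes were. The mean was -0.13 ± 0.17 (SE), with an interval from -0.52 to 0.27, and the interval under the block ran from -0.29 to 0.038 (limma adjusted p = 0.876). Blocked voom on the recovered reads gave -0.0998 ± 0.0407 (SE), which was below 0.05 before adjustment but was not called. Between codes the F test gave an adjusted p of 0.0454, with pair C below pair B by -0.30 ± 0.092 (adjusted p = 0.0255). That call of the code was lost without the filter (adjusted p = 0.185) and on leaving out either library of pair A or of pair B (0.111 to 0.474). 

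Npy, encoding neuropeptide Y, is listed at 0 in all 6 libraries on chromosome 4 from 79557856 to 79565057, and nothing can be said of its level. The table marks its transcript with 2 copies. Of the 502 transcripts marked with 2 copies, 377 (75.1%) were listed at 0 in every library, against 16.5% of the 16808 marked with 1 copy. Rps6, a ribosomal protein gene that every cell uses, is also marked with 2 copies and was at no more than 0.22 FPKM in any library. A 0 for Npy can therefore come from how reads were assigned as well as from a lack of the transcript, and the 2 cannot be told apart here.

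**Figure D3:**
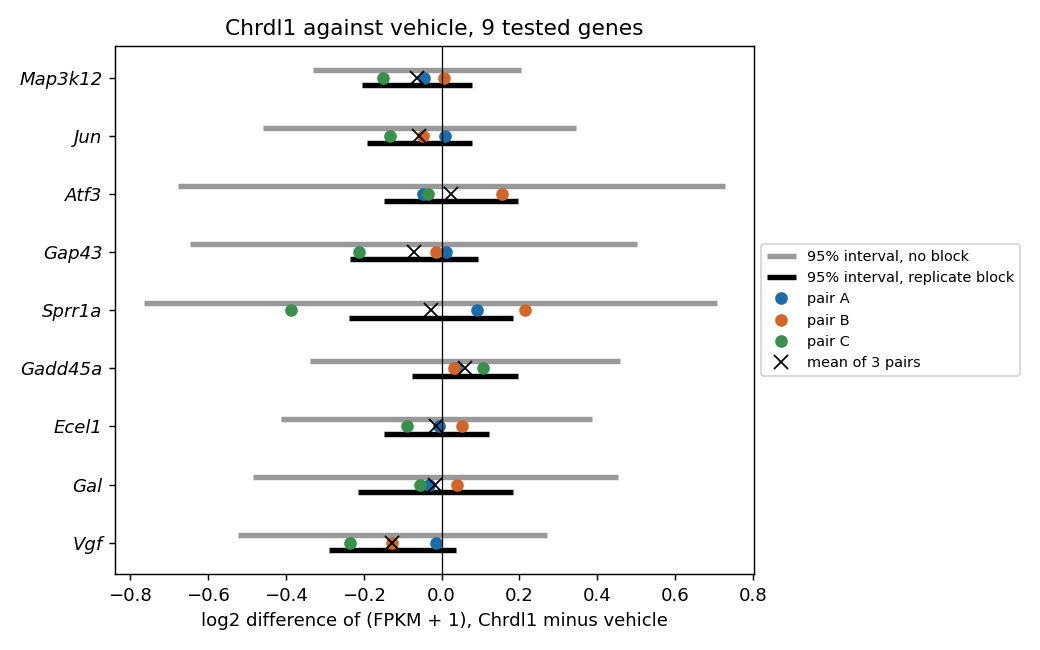
Log2 difference of (FPKM + 1), Chrdl1 minus vehicle (horizontal axis), for the 9 tested genes: coloured points are the 3 pairs, the cross is their mean, and bars are 95% intervals without (grey) and with (black) the replicate block. Every interval includes 0, and pair C is negative for 8 of the 9 genes.

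Across the 9 genes the treatment estimates ran from -0.13 to 0.059, 7 negative and 2 positive (Atf3 and Gadd45a), and 7 genes had mixed signs over the pairs. Under the block every interval included 0, with lower bounds down to -0.29 and upper bounds up to 0.20, so that larger log2 changes lie outside these intervals, in which no allowance is made for multiple testing. In pair C, 8 of the 9 genes were lower with Chrdl1. In that pair the median log2 difference of all tested genes was -0.055, and it ran with transcript length from -0.19 under 1000 bases (the class of Sprr1a and Gal) and -0.12 from 1000 up to 2000 bases (Atf3, Gap43 and Gadd45a) to -0.043 from 2000 up to 4000 bases (Map3k12, Jun and Vgf) and 0.092 at 4000 bases and over (Ecel1). In pairs A and B the medians of these classes lay between -0.026 and -0.0036. The part of this length trend in the values of the 9 genes was not tested.

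Markers of other cells differed between the codes too. The summed level of the 10 RGC markers in the table was 1.13-fold higher in pair A than in pair B and 1.12-fold higher than in pair C, against 1.54-fold and 1.93-fold for Atf3 and 1.78-fold and 1.73-fold for Sprr1a. That sum leans on Sncg, the most abundant of them: over the other 9 markers the ratios were 1.02 and 1.07. The single RGC markers had no common order. Sncg and Nefm were highest in both libraries of pair A, Rbpms, Pou4f2, Pou4f3, Isl1 and Slc17a6 in both of pair B and Thy1 in both of pair C, while Nefl and Nefh were highest in no pair by that rule. The 11 microglia and macrophage markers summed to 197 and 241 FPKM in pair A but to 14.3 and 26.2 in pair B, and reached 264 and 295 in pair C. Of them, Tyrobp reached 75.3, C1qc 48.6 and C1qa 43.9 FPKM, whereas Cx3cr1 and P2ry12 were at most 0.063 and 0.344 FPKM in any library. Photoreceptor markers, led by Crx, summed to at most 6.03 FPKM in pairs A and B and to 49.7 and 50.2 FPKM in pair C, and bipolar cell markers to at most 9.45 and to 49.2 and 48.6 FPKM. Stromal and endothelial markers ran from 7.35 to 53.8 FPKM over the 6 libraries, with Col1a2 listed at 0, and oligodendrocyte and Schwann cell markers from 13.6 to 19.2 FPKM. Amacrine markers summed to 62.99 to 78.7 FPKM, and the astrocyte and Muller glia markers were highest in pair C (95.7 and 90.0 FPKM). By treatment, the microglia and macrophage sum ran from 26.2 to 295 FPKM in vehicle and from 14.3 to 264 FPKM in Chrdl1 libraries. It was lower with Chrdl1 in all 3 pairs, at 241 against 197 FPKM (A), 26.2 against 14.3 (B) and 295 against 264 (C). Not every marker was: Csf1r, Itgam and Ptprc were higher with Chrdl1 in pair C. The part of cell composition in the levels of the 9 genes, and of the other genes named below, was not tested. In bulk RNA fewer cells of a type and less RNA per cell cannot be told apart.

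**Figure D4:**
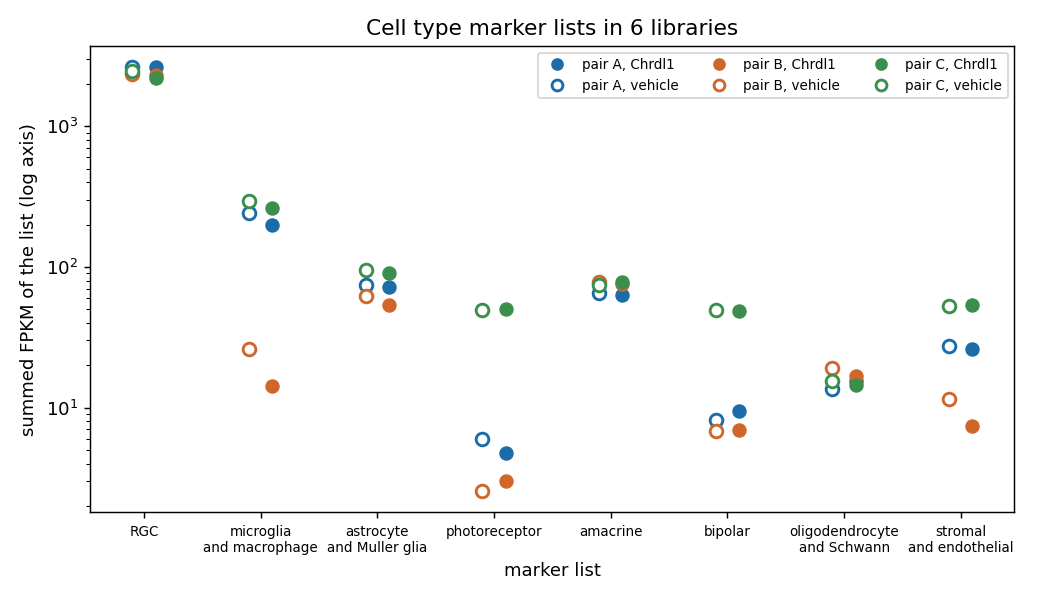
Summed FPKM (vertical log axis) of each marker list (horizontal axis) in the 6 libraries; open points are vehicle, filled points Chrdl1, colours the pairs. RGC markers lie close together, microglia and macrophage markers are low in pair B, and photoreceptor and bipolar markers are high in pair C.

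Other genes of the same pathways were read from lists chosen by function. Earlier results of these data were known at that choice, so the counts of these lists are a description. None of the tested genes of any list was called for Chrdl1 against vehicle, with or without the block. The part of the pair C length trend in the treatment estimates of these lists was not tested. Around DLK and JNK, 14 genes were tested, with 11 positive and 3 negative estimates, a median log2 fold change of 0.050 (-0.028 over all tested genes) and 4 genes higher in all 3 pairs, against 7.55% of all tested genes. The code called 10 of the 14, against 47.4% of all tested genes, and 8 were called lower in pair C than in pair A, against 9.94%. Only 3 of the 14 were called lower in pair B than in pair A, against 15%. Both libraries of pair A were above all others in 4 of the 14, against 13.6%. Mapk8ip1, a JNK scaffold, was at 327, 279 and 253 FPKM in the A, B and C vehicle libraries and at 327, 264 and 226 FPKM in their Chrdl1 partners, the order also seen in Jun. Mapk10, the neuronal JNK3, was lower in pair C than in pair A by -0.43 ± 0.079 (limma adjusted p = 0.00162). Usp9x, a deubiquitinase, and Mycbp2, a ubiquitin ligase that limits DLK in fly, worm and mouse neurons, had the smallest unadjusted p for treatment on this list, with estimates of 0.16 and 0.12 and block adjusted p-values of 0.872 and 0.880. Both differed most in pair C: the A, B and C differences were 0.13, -0.054 and 0.40 for Usp9x and 0.047, 0.048 and 0.26 for Mycbp2.

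Among 17 tested transcription factors tied to regeneration, 15 estimates were negative and 2 positive, with a median of -0.056, beside the -0.028 of all tested genes. Of the 17, 5 were lower in all 3 pairs (19.5% of all tested genes) and 11 were called by the code (47.4%). Only 2 of the 17, Jund and Klf6, were highest in both libraries of pair A (13.6%). Fos, the partner of Jun in AP-1, ran against Jun: it was at 11.04, 21.6 and 21.5 FPKM in the A, B and C vehicle libraries and at 10.2, 19.8 and 18.5 FPKM in their Chrdl1 partners. Pair A was thus the lowest for Fos, with pair B above it by 0.90 ± 0.092 and pair C by 0.85 ± 0.092 on the log2 scale (limma adjusted p = 1.8e-05 and 3.3e-05). Cebpd, a C/EBP factor of inflammatory responses, was highest in pair C, at 23.0 and 20.4 FPKM, against 7.55 and 6.07 (pair A) and 4.12 and 2.23 (pair B). It was lower with Chrdl1 in all 3 pairs, with a mean of -0.37 that was not called under the block (adjusted p = 0.779).

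Of 22 tested growth-associated and injury-induced effectors, 9 had positive and 13 negative estimates, with a median of -0.022, and the code called 17, against 47.4% of all tested genes. In 8 of the 22 (Stmn2, Stmn4, Arg1, Anxa2, L1cam, Tubb3, Dpysl2 and Lgals1) both libraries of pair A were above all others, against 13.6% of all tested genes. Not every injury gene followed that order. Hspb1, a small heat shock protein, was at 3.65 and 4.02 FPKM for A, 0.932 and 1.04 for B and 6.04 and 7.10 for C. Il6, encoding interleukin-6, was at 7.25 and 8.16 FPKM in pair C and at most 1.46 FPKM elsewhere. The sums of the microglia and macrophage, photoreceptor and bipolar markers were highest in pair C as well. Lgals1 and Cacna2d2 had treatment estimates of -0.18 and 0.12 (block adjusted p = 0.872 and 0.876). Cacna2d2 encodes a calcium channel subunit that was counted on this list by choice, and whether it promotes or limits growth was not tested.

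The 14 tested growth suppressors had 8 positive and 6 negative estimates with a median of 0.043, and the code called 6 of them, a share no higher than the 47.4% of all tested genes. Only Lingo1 was highest in both libraries of pair A (13.6% of all tested genes). Rock1, a kinase downstream of RhoA, was lowest there, at 5.13 and 4.37 FPKM, against 7.35 and 10.6 (pair B) and 9.70 and 13.9 (pair C). Rhoa itself was lowest in pair B, at 156 and 148 FPKM, and Klf4, a factor that restrains axon growth, was above 2 FPKM in pair C alone (2.63 and 2.56).

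Of 18 tested neuropeptide and granule genes, 15 had negative and 3 positive estimates with a median of -0.076, beside -0.028 over all tested genes, and 7 were lower in all 3 pairs (19.5% of all tested genes). The code called 12 (47.4%), and 9 (Cck, Nts, Crh, Cartpt, Scg3, Scg5, Chgb, Cpe and Pam) were highest in both libraries of pair A (13.6%), unlike Vgf. Cartpt, the precursor of CART peptides, was at 443, 184 and 332 FPKM in the A, B and C vehicle libraries and at 460, 181 and 275 FPKM in their Chrdl1 partners. Pair B was low for Cartpt as for Gal. Penk, the enkephalin precursor, and Tac1, the substance P precursor, were instead highest in pair C, at 14.4 and 11.9 FPKM and at 230 and 213 FPKM. Adcyap1, encoding PACAP, was lower with Chrdl1 in all 3 pairs, with a mean of -0.11 (block adjusted p = 0.872).

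Receptors for galanin and neuropeptide Y were mostly low. Npy2r, a presynaptic NPY receptor, was the most abundant, at 21.9, 32.9 and 26.7 FPKM in the A, B and C vehicle libraries and at 20.2, 30.2 and 23.3 FPKM in their Chrdl1 partners. Npy1r ran from 2.61 to 4.95 FPKM and Galr1 from 1.01 to 3.80 FPKM. Both were highest in both libraries of pair B, as were 17.8% of all tested genes. Galr3, Npy4r and Npy5r reached at most 0.394 FPKM and Galr2 is listed at 0. Of the 13 tested Gadd45 relatives and p53 targets, 11 estimates were negative and 2 positive, with a median of -0.067, beside -0.028 over all tested genes, and the code called 8 (47.4% of all tested genes). None of them was highest in both libraries of pair A, where 13.6% of all tested genes were. Gadd45b was at 2.86 and 2.77 FPKM for A, 2.22 and 0.964 for B and 7.98 and 6.08 for C, an order unlike that of Gadd45a. Cdkn1a, the p53 target encoding p21, was also highest in pair C, at 111 and 93.2 FPKM, against 59.5 and 56.0 in pair A.

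The genes closest to the most variable members were found by the root mean square (RMS) difference of mean-centred log2(FPKM + 1) over the 6 libraries, which share 3 codes. Arg1, Tubb3 and Chac1 lay closest to Sprr1a, with RMS differences of 0.105, 0.105 and 0.129. Closest to Atf3 were Stmn4, Tmtc4 and Ubash3b (0.0648, 0.0652 and 0.0719), and closest to Gap43 were Gng3, Nnat and Adamts4 (0.0309, 0.0332 and 0.0472). Tubb3, the neuronal beta-tubulin, was at 606, 307 and 393 FPKM in the A, B and C vehicle libraries and at 619, 314 and 330 FPKM in their Chrdl1 partners. Arg1, an arginase tied to axon growth, was at 42.7, 24.8 and 29.1 FPKM and at 42.3, 24.5 and 24.8 FPKM. They were picked for this likeness, so their values are a description.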

How the data were processed

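Polyadenylated RNA of 6 libraries was sequenced. FastQC, STAR 2.4.0k, HOMER 4.8.3 and build rn6 are named in the submitters' processing notes; for the annotation release and multiply mapped reads the rule is not stated. The authors deposited FPKM values with the length and the number of copies of each transcript. Read totals were recovered as the scale at which FPKM times length gives whole reads, with the 0.0005 FPKM of rounding as tolerance, among values of under 500 reads: 99.6% to 99.96% of the checked values came out whole per library, where 3.26% to 5.59% would by chance. Per library, 62.7% to 65.8% of reads fell on listed transcripts.

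With R 4.3.3, limma 3.58.1 (trended eBayes, two-sided) was run on log2(FPKM + 1) for the 10390 genes that reached 1 FPKM in 3 or more libraries, with Benjamini-Hochberg adjustment over all of them. Fold changes are on that log2 scale, which understates low genes. The main fit had treatment only and gave the SEs of the treatment estimates. The code test added the code and gave the SEs of differences between pairs, so these 2 kinds of SE are not alike. Deviations from group means correlated between the libraries of a code at 0.82, 0.86 and 0.84, so the codes were taken to pair them. Python 3.11.15, numpy 2.4.6 and pandas 2.3.3 were used. The fits were also run on simulated data, in which far fewer genes differed by code than here. Promoters came from RefSeq (GRCr8). All 10 genes were named throughout. Of each pathway list, up to 4 genes were named, those with the smallest unadjusted p for treatment under the block and for the code, and genes named beyond these (those highest in pair A, and low receptors) were chosen after their values were seen. The genes closest to the 3 most variable members were named too. The members and lists were chosen with earlier results of these data known. Alternatives were a pseudocount of 0.1, no filter, quantile normalization, voom on recovered reads, the replicate block and leaving out libraries or pairs.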

Additional observations from a re-analysis of the deposited data

How the results depend on the processing

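Under the 15 alternatives run for each of the 9 genes, 0 of 135 treatment estimates were called, and 27 changed sign. With all 3 pairs, 0 of all tested genes were called with or without the replicate block; on only 2 pairs the blocked fit called 25 genes without pair A, 34 without pair B and 0 without pair C, none of them among the 9. Signs turned for Sprr1a (0.011) and Ecel1 (0.031) with quantile normalization, for Ecel1 with voom (0.013) and voom with the replicate block (0.0092), for Atf3 under the block without pair B (-0.040), and without pair C for Sprr1a (0.15), Ecel1 (0.023) and Gal (0.0042).

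Dropping 1 library unbalances the codes; estimates then ran from -0.14 to 0.033 for Map3k12, -0.20 to 0.072 for Jun, -0.20 to 0.29 for Atf3, -0.28 to 0.094 for Gap43, -0.32 to 0.21 for Sprr1a, -0.070 to 0.19 for Gadd45a, -0.15 to 0.12 for Ecel1, -0.18 to 0.12 for Gal and -0.20 to -0.019 for Vgf. The code called 4930 genes with all libraries and 3148 to 5581 on leaving out 1, the lowest without the Chrdl1 library of pair A. Jun, Atf3, Gap43, Sprr1a, Gadd45a and Ecel1 were called between codes under all 10 alternatives, Gal under 9, Vgf under 5 and Map3k12 under 4. Gal rests on 56 reads in the shallowest library, which limits its precision; intervals from reads would cover counting error only.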
